A study of Mus musculus with 3 samples.

Results

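The microRNAs miR-99a, miR-99b, miR-100, miR-125a and miR-125b are encoded beside members of the let-7 family, and 7 assays for them were followed in neural stem cells (NSCs), embryonic stem cells (ESCs) and mouse embryonic fibroblasts (MEFs). They were chosen by name, as every row for miR-99a, miR-99b or miR-100 and every row whose name begins with miR-125a or miR-125b, with the rows marked by a star left out. This gave 7 of the 709 microRNAs of the screen: mmu-miR-99a, mmu-miR-99b, mmu-miR-100, mmu-miR-125a-5p, mmu-miR-125a-3p, mmu-miR-125b-5p and mmu-miR-125b-3p, written below without the prefix for mouse. The screen was a qRT-PCR of total RNA, and NSCs from fetal mouse forebrain were set against ESCs and MEFs as control cells. Each cell type was 1 sample measured in 2 PCR runs, and the design text says that equal amounts of total RNA were pooled before the PCR. The strain, the age, the ESC line and any agent given to the cells are not stated in the labels. The runs are technical repeats, so an error below covers the PCR runs of the assays only, and no test between cell types was possible.

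The miR-99 and miR-100 microRNAs form 1 family and are known to act on the mTOR and IGF1 receptor messages. miR-125 is the vertebrate relative of lin-4, which with let-7 was found as a regulator of developmental timing in Caenorhabditis elegans. In mammals, miR-125b is known from neuronal differentiation and from blood cells. Hairpins of the miR-99 family, let-7 and miR-125 follow each other in several places in the genome, and mature strands are cut from both sides of such a hairpin. A strand finds its targets mainly through its seed, the stretch from base 2 to base 8. In pluripotent cells LIN28 binds let-7 precursors and holds back their processing.

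The mature sequences show which assays stand close to each other, and those of the miR-99 family come first because they differ at few bases. They are RefSeq sequences on the mouse build GRCm38.p6, all on the plus strand, written 5′ to 3′ with the seed in capitals.
miR-99a: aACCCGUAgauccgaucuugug
miR-100: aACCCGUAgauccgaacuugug
miR-99b: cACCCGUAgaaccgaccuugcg
Counted from 1 at the 5′ end, miR-99a and miR-100 differ by the single substitution U16A. From miR-99a to miR-99b there are 4 substitutions, A1C, U11A, U16C and U21C. The seed ACCCGUA occurs in 3 of the 1679 mature microRNA names of the RefSeq table, and these are the 3 shown. How far each assay also detects its near relative was not tested. miR-99a lies at chr16:77598940-77598961, miR-100 at chr9:41531437-41531458 and miR-99b at chr17:17830194-17830215.

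The miR-125 strands are shown because the 5p strands of miR-125a and miR-125b have a common seed, while their 3p strands do not.
miR-125a-5p: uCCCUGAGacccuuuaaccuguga
miR-125b-5p: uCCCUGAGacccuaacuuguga
miR-125a-3p: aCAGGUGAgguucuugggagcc
miR-125b-1-3p: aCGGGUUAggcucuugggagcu
miR-125b-2-3p: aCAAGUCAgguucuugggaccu
The 5p strands are identical over their first 13 bases, and their seed CCCUGAG occurs in 5 mature names. miR-125a-5p lies at chr17:17830817-17830840 and miR-125a-3p at chr17:17830855-17830876. The sequence of miR-125b-5p is encoded at chr9:41581940-41581961 and again at chr16:77646279-77646300, so its assay reads both hairpins together. The name miR-125b-3p does not say which of the 2 3p strands the assay was made for, and neither was assigned to it.

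The 3 loci have the same order of hairpins. On chromosome 17, Mir99b, Mirlet7e and Mir125a lie within 692 bases, inside the gene Spaca6. On chromosome 16, Mir99a, Mirlet7c-1 and Mir125b-2 span 47408 bases, next to the host transcript gene Mir99ahg. On chromosome 9, Mir100, Mirlet7a-2 and Mir125b-1 span 50578 bases inside Mir100hg.

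A Ct is the PCR cycle at which a product was detected, so a lower Ct means more RNA. For each assay a delta Ct was computed by subtracting the average of U6, U1 and RNU43, small RNAs used as references, on the same plate in the same sample. This average was taken as fixed, so errors of log2 folds and run overlaps below leave out the PCR error of the references. A mean Ct of at most 32 was reached by 451 of 686 measured microRNAs in NSCs, by 382 of 680 in ESCs and by 515 of 700 in MEFs. The median gap between runs of these microRNAs was 0.152 to 0.169 cycles. Of the NSC markers, 4 of 4 were called higher in NSCs than in MEFs. Of the ESC markers, 12 of 14 measured were called higher in ESCs than in MEFs, beside 5.3% of all. The 8 fibroblast and mesenchymal markers were measured in all samples with none at 0, and their summed level on the log2 scale was -3.65 in NSCs, 0.44 in ESCs and 1.88 in MEFs. Of these 8, 7 were called lower in NSCs than in MEFs, beside 13.9% of all microRNAs. In ESCs 1 was called lower than in MEFs, beside 3.24%. Their part in the values below was not tested.

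All 42 wells of the 7 assays gave a Ct, and all 7 assays were on the first of 2 plates. In each sample 6 assays had a mean Ct of at most 32, and miR-125b-3p lay above 32 in every sample. Assays differ in how well they amplify, so the Ct of one microRNA says little about its amount beside another, and the comparisons below follow each assay across the samples.

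On the delta Ct scale, miR-99a was the assay with its highest level in NSCs. Its Ct was 26.72 and 26.96 in the NSC runs, 30.32 and 30.97 in the ESC runs and 27.96 and 27.99 in the MEF runs. The mean delta Ct was 2.91 in NSCs, 4.75 in ESCs and 3.63 in MEFs. The NSC runs lay below both other samples on this scale with no overlap, which places the highest level in NSCs and the lowest in ESCs.

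miR-100, which differs from miR-99a at 1 base, had another order. Its Ct was 27.69 and 27.96 in NSCs, 30.09 and 30.47 in ESCs and 27.50 and 27.75 in MEFs. On the delta Ct scale its mean was 3.90, 4.39 and 3.28 in the same order, with no overlap between the runs of different samples. Its level was therefore highest in MEFs and lowest in ESCs, as far as the reference RNAs hold.

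miR-99b, the family member of the chromosome 17 locus, had a Ct of 24.70 and 24.59 in NSCs, 25.91 and 26.06 in ESCs and 23.86 and 23.92 in MEFs. Its mean delta Ct was 0.72 in NSCs, 0.09 in ESCs and -0.45 in MEFs. Runs of different samples were separate, and here the NSC sample was the lowest.

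miR-125a-5p, cut from the same locus as miR-99b, had a Ct of 27.31 and 27.43 in NSCs, 28.41 and 28.26 in ESCs and 26.25 and 26.36 in MEFs. Its opposite strand miR-125a-3p had a Ct of 28.09 and 28.22 in NSCs, 29.98 and 29.92 in ESCs and 27.14 and 27.13 in MEFs. Both strands were highest in MEFs and lowest in NSCs, with mean delta Ct values of 3.44, 2.44 and 1.96 for the 5p strand and 4.22, 4.06 and 2.79 for the 3p strand in NSCs, ESCs and MEFs. For the 3p strand the step between NSCs and ESCs was small, although the runs did not overlap.

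miR-125b-5p was among the earliest assays of the screen, at place 65 of 686 by Ct in NSCs, 51 of 680 in ESCs and 39 of 700 in MEFs. Its Ct was 25.14 and 25.11 in NSCs, 26.02 and 25.87 in ESCs and 23.57 and 23.70 in MEFs. Its mean delta Ct was 1.20, 0.05 and -0.71, so that NSCs had the lowest level and MEFs the highest, with separate runs.

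miR-125b-3p was late in every sample, with a Ct of 31.77 and 32.40 in NSCs, 33.69 and 34.03 in ESCs and 32.25 and 32.07 in MEFs. Its mean delta Ct was 8.15, 7.97 and 7.81, and the runs of all samples overlapped. No order of the cell types could be given for it.

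**Figure D1:**
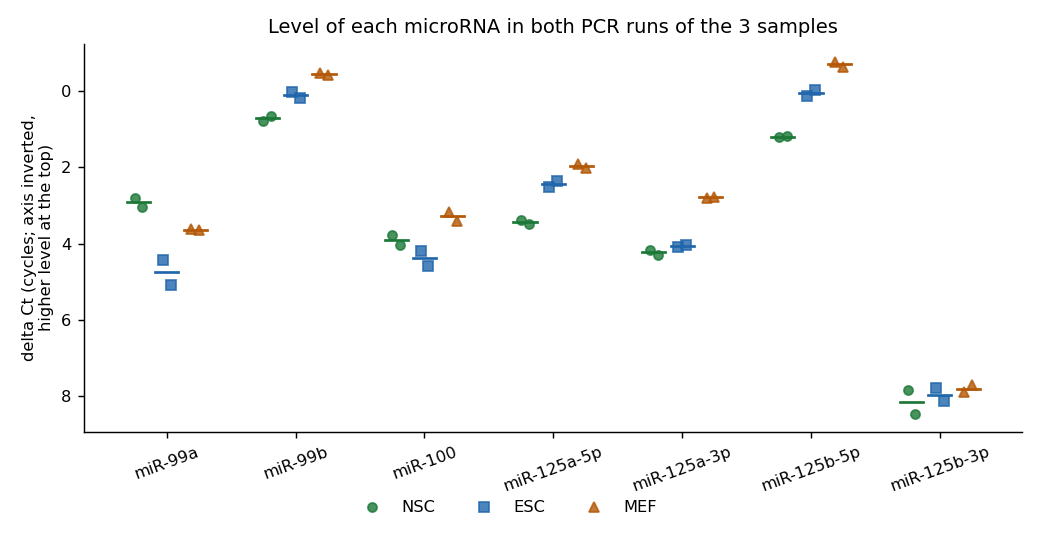
Delta Ct (cycles, axis inverted so that a higher level is at the top) of the 7 assays in NSCs (circles), ESCs (squares) and MEFs (triangles); points are the PCR runs and bars their mean. miR-99a is the assay whose NSC runs lie above those of both other samples, and the runs of miR-125b-3p overlap.

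The order MEF, ESC, NSC from high to low was found for 5 of the 7 assays, miR-125b-3p with its overlapping runs included. Among the 677 microRNAs measured in all samples 27.8% had this order. The order of miR-100 was that of 13.7% of these microRNAs, and the order of miR-99a that of 13.1%.

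The comparison of NSCs with MEFs asked which microRNAs set neural stem cells apart from fibroblasts. miR-99a was 1.65-fold higher in NSCs (log2 fold 0.72 ± 0.12, PCR error), and the other 6 assays had values below 0. miR-125b-5p had the lowest value, at -1.91 ± 0.07, followed by miR-125a-5p at -1.47 ± 0.08 and miR-125a-3p at -1.44 ± 0.06. miR-99b stood at -1.17 ± 0.06 and miR-100 at -0.61 ± 0.18. miR-125b-3p had -0.34 ± 0.33 with overlapping runs. A call required a change of 4-fold or more, separate runs, and an average Ct no later than 32 in whichever sample was higher. By this rule 0 of the 7 assays were called, while of all 685 microRNAs compared 1.75% were called higher and 13.9% lower in NSCs. At a 2-fold limit, miR-99b, miR-125a-5p, miR-125a-3p and miR-125b-5p were called lower, 4 of 7 beside 26.7% of all microRNAs, and none was called higher beside 5.55%. The median log2 fold of the 7 assays was -1.17, and that of all plate 1 microRNAs was -0.64.

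The comparison of NSCs with ESCs, which shares the NSC sample with the one above, set neural stem cells against pluripotent cells. miR-99a had a log2 fold of 1.84 ± 0.35 and miR-100 one of 0.49 ± 0.23. The lowest values were those of miR-125b-5p at -1.14 ± 0.08 and miR-125a-5p at -0.99 ± 0.10. miR-99b had -0.62 ± 0.09, miR-125a-3p -0.17 ± 0.07 and miR-125b-3p -0.19 ± 0.36, the last with overlapping runs. Again 0 of 7 were called at the 4-fold limit, beside 2.95% called higher and 14.9% called lower among 678 microRNAs. At the 2-fold limit miR-99a was called higher, beside 8.41% of all, and miR-125b-5p lower, beside 22.3%. The median of the 7 assays was -0.19 and that of plate 1 was -0.46.

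ESCs compared with MEFs gave values below 0 for all 7 assays, with a median of -0.76. Of the 356 plate 1 microRNAs compared, 208 were below 0 as well, with a median of -0.25. The log2 fold of ESCs over MEFs was -1.27 for miR-125a-3p, -1.12 for miR-99a, -1.10 for miR-100, -0.76 for miR-125b-5p, -0.55 for miR-99b and -0.48 for miR-125a-5p. For miR-125b-3p it was -0.15 with overlapping runs. At the 4-fold limit 0 of 7 were called, beside 5.3% higher and 3.24% lower of 679 microRNAs. At the 2-fold limit miR-99a, miR-100 and miR-125a-3p were called lower, beside 14.3% of all, and none was called higher, beside 12.2%.

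**Figure D2:**
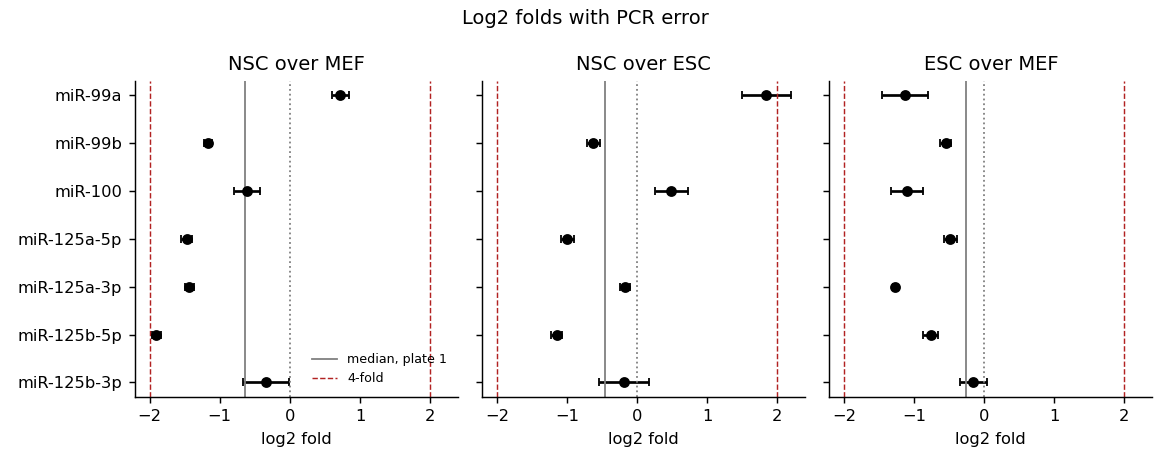
Log2 folds of the 7 assays in the 3 comparisons; points are means of the runs, bars the PCR error, the grey line the median of all plate 1 microRNAs and the red dashed lines a 4-fold change. No point lies beyond a 4-fold line, and miR-99a has the highest value in both comparisons of NSCs.

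These folds depend on the reference RNAs, which did not move together. On plate 1, the U6 signal of ESCs was 2.59 cycles behind that of NSCs and the U6 signal of MEFs 0.93 behind, with delays of 2.31 and 1.10 cycles for U1. RNU43 came 0.99 cycles later in ESCs but 0.78 earlier in MEFs (-0.78 cycles), and 1 of its 2 ESC wells on this plate was measured. Over 6 choices of reference (the mean of the small RNAs, each alone, the mean of early microRNAs, and miR-16), the log2 fold of miR-99a in NSCs over MEFs ranged from -0.06 to 1.92, and in NSCs over ESCs from -0.79 to 2.82. The value below 0 came with miR-16 in both.

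miR-125b-5p and miR-125a-5p stayed below 0 in NSCs under all 6 references, against MEFs and against ESCs. For miR-125b-5p the range was -2.69 to -0.71 over MEFs and -3.77 to -0.17 over ESCs. For miR-125a-5p it was -2.26 to -0.28 over MEFs and -3.62 to -0.02 over ESCs. The value of -0.02, with RNU43 alone, is smaller than the PCR error of 0.10 and cannot be told from 0. miR-125a-3p stayed below 0 over MEFs, from -2.22 to -0.24, but not over ESCs, where the highest value was 0.80. The sign of miR-99b turned with RNU43 in NSCs over MEFs, at 0.03, and the value of miR-100 there reached 0.59. In NSCs over ESCs miR-99b was above 0 with RNU43 (0.35) and with the mean of early microRNAs (0.05). There miR-100 was below 0 with U6 alone (-0.14) and with miR-16 (-2.14). The sign of miR-125b-3p turned under 2 references in each comparison of NSCs. All 7 values of ESCs over MEFs turned above 0 with miR-16 as the reference.

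**Figure D3:**
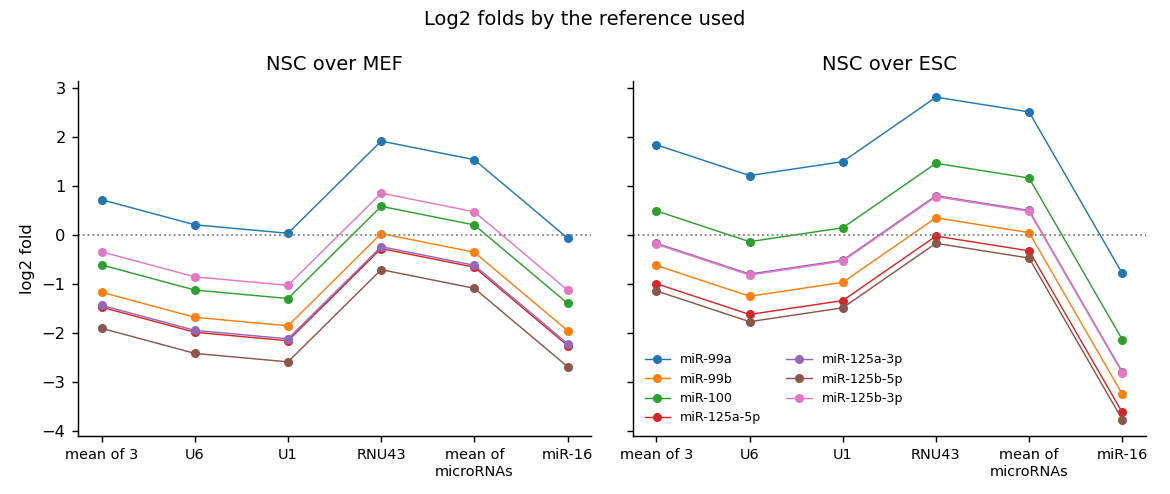
Log2 fold of each assay in NSCs over MEFs (left) and NSCs over ESCs (right) for 6 choices of reference on the x axis; each line is 1 assay. The lines run parallel because the assays share a plate, so the reference moves all values together and miR-99a stays the highest line at each choice.

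Differences between assays of the same plate within a sample do not depend on the reference, and their change from sample to sample was compared next. The Ct of miR-100 minus that of miR-99a was 0.99 ± 0.18 cycles in NSCs, -0.37 ± 0.38 in ESCs and -0.35 ± 0.13 in MEFs. In NSCs miR-99a thus came before miR-100, while in MEFs it came after. The change was 1.33 ± 0.22 cycles between NSCs and MEFs, a 2.52-fold shift, and 1.35 ± 0.42 cycles between NSCs and ESCs. ESCs and MEFs differed by -0.02 ± 0.40 cycles, less than the PCR error.

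The shift was larger against miR-125b-5p, whose sequence is encoded at the chromosome 16 locus of miR-99a and also on chromosome 9. How much each hairpin gave in these cells was not measured. miR-125b-5p came before miR-99a by 1.71 cycles in NSCs (difference -1.71 ± 0.12), by 4.70 in ESCs (-4.70 ± 0.34) and by 4.34 in MEFs (-4.34 ± 0.07). Relative to miR-125b-5p, miR-99a was therefore 6.18-fold higher in NSCs than in MEFs (2.63 ± 0.14 cycles) and 7.92-fold higher than in ESCs (2.99 ± 0.36 cycles). Relative to miR-99b, which shares its seed, it was 3.71-fold higher in NSCs than in MEFs and 5.52-fold higher than in ESCs. miR-125a-5p and miR-125b-5p, with their common seed, moved far less against each other, by -0.43 ± 0.10 cycles between NSCs and MEFs and -0.15 ± 0.12 between NSCs and ESCs.

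The strands of the miR-125a hairpin kept nearly the same distance in NSCs and MEFs but not in ESCs. The 3p strand came 0.79 ± 0.09 cycles after the 5p strand in NSCs, 0.83 ± 0.05 in MEFs and 1.61 ± 0.08 in ESCs. The change between NSCs and MEFs was -0.04 ± 0.10 cycles, and that between ESCs and MEFs 0.79 ± 0.10 cycles, a 1.73-fold shift. For miR-125b the 3p assay came 6.96 ± 0.32 cycles after the 5p assay in NSCs, 7.91 ± 0.19 in ESCs and 8.52 ± 0.11 in MEFs, with the late Ct of the 3p assay in each. The star strand miR-125b*, on the second plate and so dependent on both plates' references, came 8.65, 9.50 and 9.66 cycles after miR-125b-5p in NSCs, ESCs and MEFs.

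**Figure D4:**
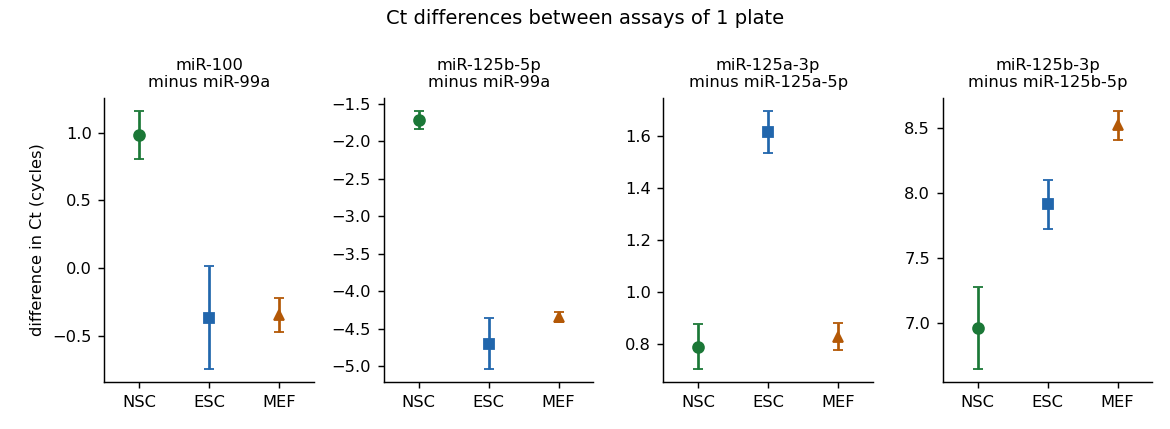
Ct differences (cycles) between pairs of assays of the first plate in NSCs, ESCs and MEFs; points are differences of run means, bars the PCR error, and each panel has its own y axis, which does not start at 0. NSCs stand apart in both panels with miR-99a, and ESCs stand apart for the strands of miR-125a.

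By locus, the assays that come from chromosome 17 alone kept together in NSCs over MEFs. These 5 assays (miR-99b, miR-99b*, let-7e, miR-125a-5p and miR-125a-3p) had log2 folds from -1.64 to -1.17. The lowest was that of miR-99b*, which was on the second plate and so had other reference wells. In NSCs over ESCs they ranged from -0.99 to -0.17 and in ESCs over MEFs from -1.27 to -0.48. All these values are below 0 with the mean of the small RNAs as the reference. The NSC and ESC runs of let-7e overlapped, at -0.38 ± 0.35. With RNU43 alone, miR-99b and miR-125a-3p were above 0 in NSCs over ESCs, at 0.35 and 0.80, and miR-125a-5p was at -0.02. let-7e and miR-99b* were not computed with other references, but their values of -0.38 and -0.85 are within the step this reference makes. On plate 1 the ESC lag behind NSCs was 1.96 cycles for the mean and 0.99 for RNU43. On plate 2 it was 2.09 and 1.11. The signs of this locus against ESCs thus rest on the reference. Among all microRNAs, 462 of 685 were below 0 in NSCs over MEFs, 444 of 678 in NSCs over ESCs and 371 of 679 in ESCs over MEFs. From chromosome 16 alone came miR-99a and the star strand let-7c-1*, and both had values above 0 in NSCs. For let-7c-1*, also on the second plate, the value was 1.19 ± 0.32 against MEFs. Against ESCs, where its mean Ct was 33.8, it was 1.42 ± 0.69. Values above 0 were not limited to these assays. The star strand let-7a*, not assigned to a locus here, had 0.42 ± 0.07 against MEFs. Against ESCs it had 2.05 ± 0.26 and was called higher. From chromosome 9 alone came miR-100. miR-125b-5p, let-7a and let-7c come from more than 1 locus, and their values cannot be given to one of them.

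**Figure D5:**
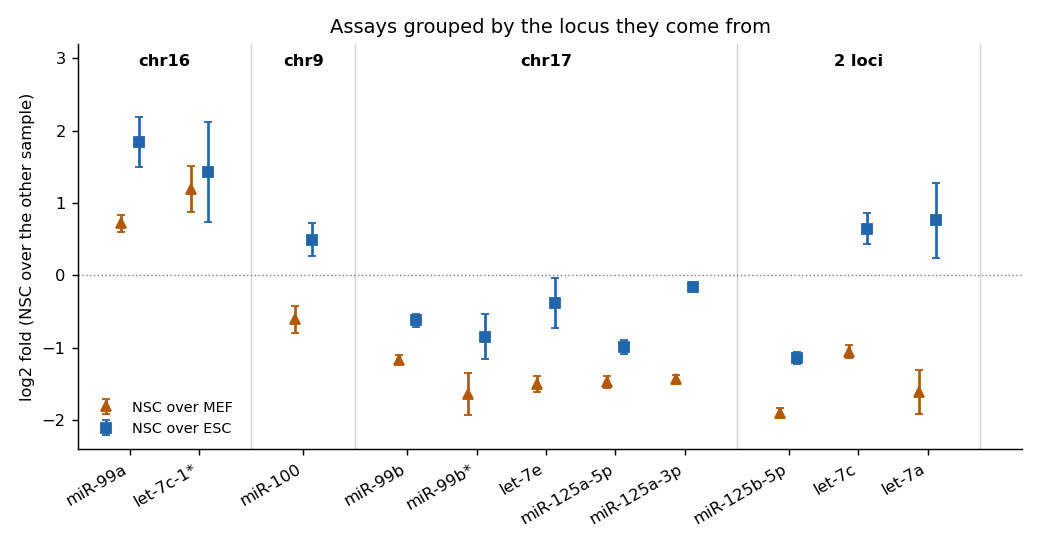
Log2 folds of NSCs over MEFs (triangles) and NSCs over ESCs (squares) for assays grouped by the chromosome of the hairpin they come from, with PCR error bars; the group on the right has more than 1 source. Both assays of chromosome 16 lie above 0 and all 5 of chromosome 17 lie below 0, with overlapping runs for let-7e in NSCs over ESCs. These signs are those with the mean of the small RNAs as the reference, and the star strands were on the second plate.

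The neighbouring let-7 microRNAs, repressors of proliferation genes, were set beside the members. In NSCs over MEFs let-7a had a log2 fold of -1.62, let-7e -1.51 and let-7c -1.06, and 0 of 3 were called. In NSCs over ESCs the values were 0.76 for let-7a, 0.65 for let-7c and -0.38 for let-7e, the last with overlapping runs. let-7a was called lower in ESCs than in MEFs, at -2.38. The 6 other let-7 family assays had a median of -1.01 in NSCs over MEFs with 0 called, 0.77 in NSCs over ESCs, and -1.73 in ESCs over MEFs with 2 called lower. The let-7 medians in ESCs over MEFs, -1.70 for the 3 neighbours and -1.73 for the others, were thus further below 0 than the -0.76 of the 7 assays. Both sets were compared by their values only.

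miR-10a and miR-10b, encoded in the Hox clusters, are distant relatives of the miR-99 family, and the longest stretch that miR-10a has in common with miR-100 was 11 bases. Their log2 folds in NSCs over MEFs were -5.53 ± 0.19 and -6.24 ± 0.72, and over ESCs -5.25 ± 0.06 and -5.99 ± 0.73. Both were called lower in NSCs in either comparison, with values far below those of any of the 7 assays. Their mean Ct in NSCs was late, at 33.15 and 34.57, and the NSC runs of miR-10b lay 1.41 cycles apart. The size of these folds is therefore uncertain.

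The microRNAs nearest in pattern were found by the distance between delta Ct profiles, each centred on its own mean, over the 3 cell types among 314 candidates. For miR-99a they were miR-15b at 0.0836 cycles, miR-350 at 0.233 and miR-149 at 0.263, and the nearest member with a Ct of at most 32 in all samples was miR-100 at 1.10 cycles. For miR-100 they were miR-138, miR-1937b and miR-1937a. For miR-99b they were miR-592, miR-453 and miR-2133, and 47 candidates lay within 0.5 cycles. For miR-125b-5p they were miR-767, miR-148a and miR-300, and for miR-125a-5p miR-718, miR-148b and miR-1983. With 3 points per profile, such nearness is a description only.

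The MEF values need a further limit. The MEF Ct values in the study's supplementary table were not those deposited: 0 of the 14 MEF wells of these assays were equal within 0.001 cycles. The mismatch covered the whole MEF sample, with 0 of 1351 wells equal over all microRNAs. With that table, 5 of the 7 signs in NSCs over MEFs and 7 of 7 in ESCs over MEFs were turned, so the direction of most values against MEFs rests on the deposited set. How many of all microRNAs turned sign or were called with that table was not counted. Whether the turn is particular to these assays was therefore not tested. In NSCs over MEFs the signs of miR-99a and miR-125a-5p were the ones kept, and miR-99a, miR-100 and miR-125b-5p were called higher at the 4-fold limit. miR-125b-5p, the lowest of the 7 with the deposited values, was thus among the assays called higher. The differences between assays given above for MEFs, those of miR-99a and miR-125b-5p included, also rest on the deposited set. Which set is right was not tested. miR-99a stood above the other 6 assays in NSCs over MEFs with either set. The comparison of NSCs with ESCs uses no MEF value. Whether the NSC and ESC values of the supplementary table equal the deposited ones was not tested.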

How the data were processed

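The deposited tables held Ct values per well, a delta Ct per sample made by the authors, and tables of their own folds and p-values for NSCs against MEFs and ESCs, which were not used. Small RNAs were poly-A tailed, reverse transcribed and amplified with SYBR Green. For the threshold behind a Ct, no source used here gives a value. The authors' delta Ct equalled the value computed here within 0.001 cycles except for ESCs on plate 1, which was shifted by 6.90 cycles, so delta Ct was computed again from Ct. A log2 fold takes 2-fold amplification per cycle, and its error combines, in quadrature, the standard error of the runs in both samples. The PCR error of the reference RNAs was not included. With 1 sample per cell type no p-value was computed. The computation was tested on simulated data. The members, lists and naming rule (all members, the let-7, opposite-strand and miR-10 lists, and the 3 nearest profiles of members) were chosen with earlier results of these data known. Sequences came from RefSeq tables: 3 assays matched by name, 3 after adding 5p, and miR-125b-3p was not resolved. The 13 alternatives were other references, limits on late wells, single runs, run agreement, amplification and fold limit. The MEF Ct of the supplementary table was added after seeing the data. The work was done in Python 3.11.15 (pandas 2.3.3, numpy 2.4.6, matplotlib 3.10.9).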

Additional observations from a re-analysis of the deposited data

How the results depend on the processing

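The 4-fold calls moved as follows. In NSCs over MEFs, the number of assays called lower went from 0 to 1 with U6 alone (miR-125b-5p), to 3 with U1 alone or miR-16 (both miR-125a strands and miR-125b-5p), and to 4 at a 2-fold limit. In NSCs over ESCs, 1 was called higher, miR-99a, with RNU43 alone, with the mean of early microRNAs, with the second run alone and at 2-fold. There 5 were called lower with miR-16 and 1 at 2-fold. The median of all plate 1 microRNAs moved with the reference too. In NSCs over MEFs it was -0.64 in the main setting, -1.15 with U6, -1.33 with U1 and -1.43 with miR-16. In NSCs over ESCs it was -0.46 in the main setting and -3.09 with miR-16. With RNU43 it was 0.51 there, and with the mean of early microRNAs 0.21. The share of all microRNAs called under each other reference was not computed. In ESCs over MEFs, 3 were called lower at 2-fold. In that comparison 1 assay had a lower log2 fold than miR-99a, a number that was 3 with the first run alone, 0 with the second run alone and 5 with the supplementary MEF values. With these MEF values, which were tried only after the data had been seen, 3 assays were called higher in NSCs over MEFs (miR-99a, miR-100 and miR-125b-5p) and 2 in ESCs over MEFs (miR-99a and miR-125b-5p). The share of all microRNAs called with these MEF values was not computed. miR-99a had the highest log2 fold of all measured members in both comparisons of NSCs under all 13 other settings. Most of these settings could not change that order. References, amplification and fold limit keep it by construction, limits on late wells touch miR-125b-3p only, and run agreement left out no member. The single runs could change it and did not. The difference between miR-99a and miR-125b-5p in NSCs over MEFs was 2.81 and 2.44 in the single runs. A change of reference shifts all 7 assays alike, by its construction. No paired analysis was possible because each cell type was 1 sample. Precision is limited by 2 PCR runs and by late Ct values, as for miR-125b-3p.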
